A study of Mus musculus with 2 samples.

Results

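The genes described here build the centromere and kinetochore and run the spindle assembly checkpoint, 41 genes in all out of 24278 named genes on the array. They were chosen by name, as known parts of this machinery, with earlier results of these data known. They were matched to 57 probes through the gene symbols of the deposited table and their older or newer aliases. By role, 14 belong to the inner centromere, 15 to the outer kinetochore, 9 to the checkpoint and 2 are shugoshins, and Cenpj, which carries a centromere name, encodes a centriole protein. Total RNA from isolated pancreatic islets of C57BL/6J mice, 8 weeks old, was labelled with Cy3 and hybridised to 1-colour Agilent arrays. The pancreatectomy group had lost 60% of the pancreas 3 days earlier and the control group had a sham operation, with no transgene or deletion in either. Each group is given as 4 replicate arrays, and nothing says whether these came from separate animals, pools or portions of 1 pool, so the p-values below measure the spread between arrays only.

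The centromere is the stretch of chromatin, marked by the histone variant CENP-A, on which each chromosome builds its kinetochore. The inner, constitutive layer stays on the centromere through the cell cycle, while the outer layer, with the Ndc80, Mis12 and Ska complexes, assembles for mitosis and holds the spindle microtubules. The spindle checkpoint delays chromosome separation until every kinetochore is attached, and shugoshins protect the cohesin that joins sister chromatids. Adult islet cells rarely divide, and many genes of this machinery are transcribed mostly in late cell cycle phases through the CHR element and the CCAAT box, which bind the DREAM complex and NF-Y.

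To show what these promoters hold in common, RefSeq windows (GRCm38.p6) were searched on both strands for CCAAT, for the CHR letters TTTGAA or TTCGAA, and for the E2F-type letters TTTCCCGC and TTTGGCGC. Windows of 300 bases were matched for 37 of the 41 genes, and not for Ska1, Spc24, Zwilch or Nsl1. CCAAT was present in 24 of the 37 (64.9%), against 41.1% of the 27025 genes in the table, and a CHR in 18 (48.6%), against 21.7%. Both stood together in 14 (37.8%), against 8.61%. TTTCCCGC was found in 4 (10.8%, against 1.24%) and TTTGGCGC in 1 (2.7%, against 0.585%). Of the 14 genes with a window that were called higher after pancreatectomy, 5 held both a CHR and a CCAAT (35.7%). Of the other 23, which include the untested Cenpf, Ttk and Sgol2, 9 did (39.1%). Those 9 are not genes without a difference, since Cenpf and Ttk were not tested. In Cenpl, Cenpn, Pmf1, Bub1b and Sgol1, also among the 9, every pancreatectomy array was above every sham array. Shown here are the 5 that rose and, as a contrast, Bub3, which also holds the pair and did not pass the test. Each sequence runs 5′ to 3′ from 140 bases before the annotated start through the 30 bases that follow, and capitals mark matches to the letters above on either strand. The windows lie at chr5:30666746-30666915 on the plus strand for Cenpa, chr15:82244307-82244476 on the minus strand for Cenpm, chr10:30200511-30200680 on the minus strand for Cenpw, chr2:127831830-127831999 on the minus strand for Bub1, chr5:123749586-123749755 on the plus strand for Kntc1 and chr7:131560230-131560399 on the plus strand for Bub3.
Cenpa: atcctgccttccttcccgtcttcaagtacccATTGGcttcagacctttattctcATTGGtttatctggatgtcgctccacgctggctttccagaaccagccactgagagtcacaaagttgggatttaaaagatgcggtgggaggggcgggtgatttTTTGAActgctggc
Cenpm: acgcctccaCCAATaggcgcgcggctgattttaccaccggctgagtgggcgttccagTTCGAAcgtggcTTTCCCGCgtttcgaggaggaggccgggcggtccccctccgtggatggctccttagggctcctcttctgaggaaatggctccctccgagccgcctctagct
Cenpw: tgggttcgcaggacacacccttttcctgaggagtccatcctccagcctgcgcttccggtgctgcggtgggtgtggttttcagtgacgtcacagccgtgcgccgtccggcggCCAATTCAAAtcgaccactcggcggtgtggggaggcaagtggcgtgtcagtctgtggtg
Bub1: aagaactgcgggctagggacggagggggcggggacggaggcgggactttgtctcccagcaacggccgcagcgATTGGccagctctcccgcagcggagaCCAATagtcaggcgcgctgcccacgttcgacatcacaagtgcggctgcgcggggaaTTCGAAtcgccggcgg
Kntc1: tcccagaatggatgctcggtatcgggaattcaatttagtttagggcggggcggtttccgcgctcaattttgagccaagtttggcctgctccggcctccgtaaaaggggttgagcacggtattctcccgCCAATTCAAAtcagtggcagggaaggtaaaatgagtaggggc
Bub3: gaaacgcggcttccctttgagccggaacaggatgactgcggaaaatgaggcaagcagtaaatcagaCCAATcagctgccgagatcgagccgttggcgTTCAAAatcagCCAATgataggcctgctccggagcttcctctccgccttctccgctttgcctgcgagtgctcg
In Cenpa the CHR stands alone, after the start, and both CCAAT matches lie upstream on the opposite strand (ATTGG). Cenpw and Kntc1 share the run CCAATTCAAA, in which the CCAAT and the reversed TTTGAA share a T. These are matches of letters only, and no binding was measured in these islets.

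The arrays lie on 1 slide, with sham in slide columns 1 and 2 and pancreatectomy in columns 3 and 4, so group and slide column cannot be told apart. Both slide rows hold both groups, by the positions that the array files carry. The sham label lists 1 of these positions 2 times and another not at all, so the results by slide row rest on the files. Raw 75th-percentile signals ran from 178 on sham replicate 3, the dimmest array, to 655 on sham replicate 4, and 48.1% to 71.4% of probes were well above background. After each array was scaled to that percentile, arrays correlated at 0.960 to 0.993 within groups and 0.949 to 0.987 between them. The 12 islet endocrine markers, among them Ins1, Gcg and Pdx1, were above background on every array, with a mean log2 signal of 15.67 to 16.61. Liver transcripts stood out on sham replicate 4 and pancreatectomy replicates 1 and 4, and gut and B-cell transcripts on pancreatectomy replicate 3. These are bulk RNA samples, in which more cells of a type and more RNA per cell cannot be told apart.

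Many centromere, kinetochore and checkpoint transcripts, Ska1, Cenpe, Bub1 and Cenpa among them, rose 3 days after pancreatectomy, and no tested one fell. Of the 41 genes, 38 had a probe bright enough to test, 17 were higher after pancreatectomy, 0 were lower and 21 did not pass. The test was limma's moderated test with Benjamini-Hochberg adjustment over all 30858 features, called at an adjusted p under 0.05. Of all features tested, 0.535% were called higher and 0.0875% lower. In 27 of the 38 genes every pancreatectomy array was above every sham array, against 2.93% of all features, and in 0 was every one below, against 5.41%. The median log2 difference of the 38 was 1.65, where that of all features was -0.04. The difference was positive in 36 of the 38, and in 30 with the arrays scaled to their medians, which moved the median of all features to -0.16.

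**Figure D1:**
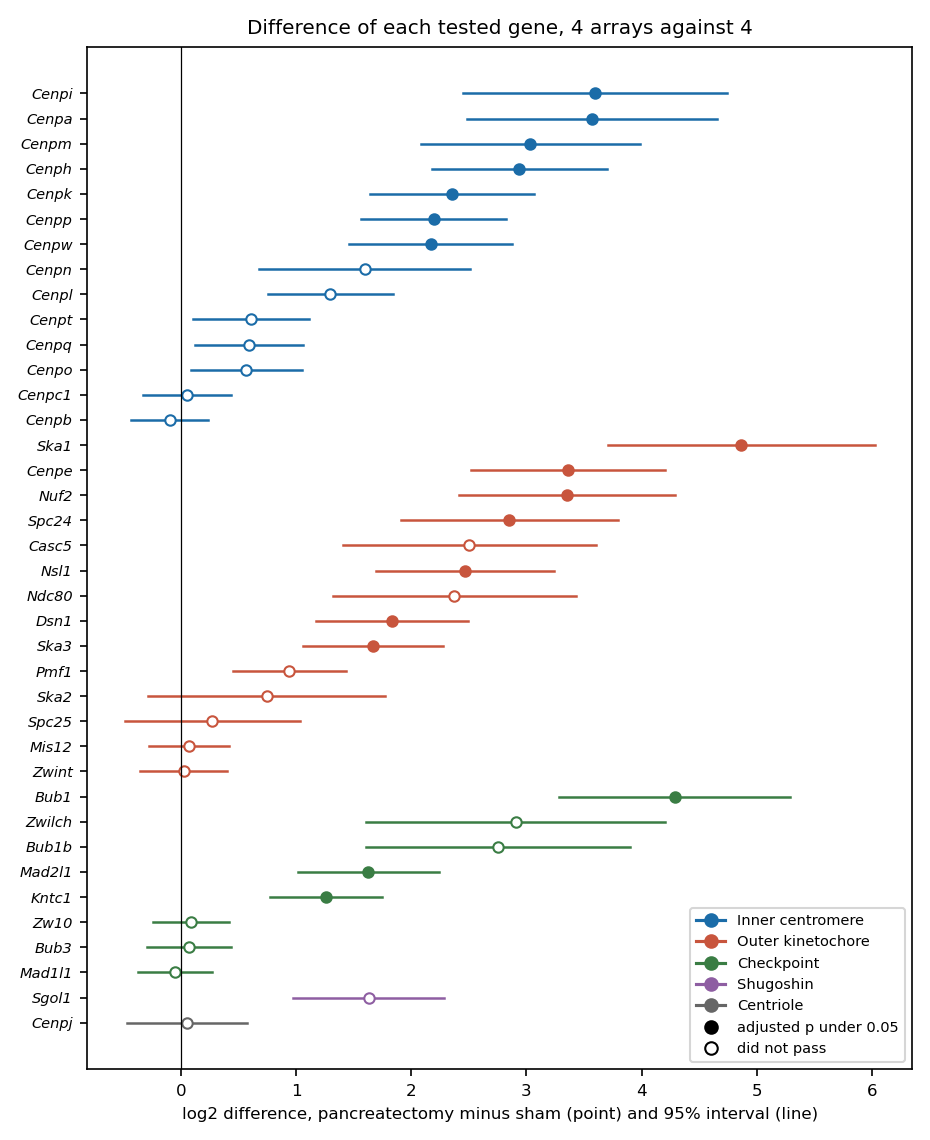
Log2 difference between 4 pancreatectomy and 4 sham arrays (horizontal axis, points) with its 95% interval (lines) for the 38 tested genes, ordered within inner centromere, outer kinetochore, checkpoint, shugoshin and centriole genes. Filled points, 17 in number, passed an adjusted p of 0.05, and Ska1 is the farthest to the right at 4.87.

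The number of calls leaned on single arrays while the direction did not. It was 5 without sham replicate 1, 4 without sham replicate 2, 10 without sham replicate 3, 9 without sham replicate 4 and 4 without pancreatectomy replicate 4, and 14 to 19 without any of the other 3, each time with 0 lower. Of all features, 165 were called higher in the main fit and 83, 52, 114, 88 and 57 without those arrays, in the same order. Without any of the other 3, the feature count was 121 to 163. Of the 17, Cenph, Ska1, Cenpe and Bub1 kept the call whichever of the 8 arrays was left out. Another background correction (normexp) called 3 genes, Ska1, Cenpk and Cenpw, and gave a median of 0.87, and unscaled arrays called 2, Ska1 and Bub1. Over all features, normexp called 52 higher and unscaled arrays 18. Normexp differences were 2.27 for Cenpa, 1.52 for Cenpi, 1.34 for Cenpm, 1.23 for Nuf2 and 2.32 for Cenpe, none of which passed. Within either slide row, 2 arrays against 2, limma's adjusted test called none, with medians of 1.93 in row 1 and 1.52 in row 2. At an unadjusted p under 0.05, 24 of the 38 genes were higher in row 1, beside 2051 of 30798 features that differed in either direction, and 25 in row 2, beside 901 of 30827.

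Part of the list was near the detection limit in sham islets, which bears on the sizes of the differences. The represented probe was well above background on all 4 sham arrays for 22 genes, of which 7 were called higher, 12 did not overlap and the median difference was 0.60. It was above background on 3 sham arrays for 12 genes (7 higher) and on 2 for Ska1, Bub1 and Cenpi (3 higher). Casc5 was above background on no sham array and entered the test through the pancreatectomy arrays alone, so it had to be higher there. With no filter on dim probes all 41 genes were tested, and 6 were called higher, against 0.146% of the 46634 features, while 28 did not overlap, against 2% of them.

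In the inner centromere 7 of 14 genes rose, 7 did not pass, and the median log2 difference was 1.88. Cenpa, which encodes the centromeric histone H3 variant, had normalized log2 signals of 5.17, 4.78, 4.21 and 5.26 in sham and of 9.83, 7.46, 8.41 and 8.00 after pancreatectomy, in the order of replicates 1 to 4 here and for the genes that follow. The groups were far apart, replicate 1 was the highest of the pancreatectomy arrays, and sham replicate 3 was not above background. The log2 difference was 3.57 ± 0.48 (SE, n = 4 and 4, limma adjusted p = 0.0161). Its probe lies at chr5:30974916-30975386 (mm9, the array's build).

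Cenpi, a subunit of the constitutive centromere network, read 4.05, 2.92, 2.93 and 4.75 in sham and 8.27, 6.69, 6.62 and 7.46 after pancreatectomy. The lowest pancreatectomy array was still well above the highest sham array, and 2 of the sham arrays were not above background. Its difference was 3.60 ± 0.50 (limma adjusted p = 0.0192; probe at chrX:130897030-130897089). Cenpm, a small subunit of the same network, went from 4.29, 3.35, 3.85 and 4.53 to 7.95, 6.27, 6.42 and 7.52, again without overlap. Its difference was 3.03 ± 0.42 (limma adjusted p = 0.0184).

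The other inner genes that rose were Cenph (2.94 ± 0.33), Cenpk (2.35 ± 0.31), Cenpp (2.19 ± 0.28) and Cenpw (2.17 ± 0.31), at limma adjusted p of 0.00876 to 0.0220. Cenph, Cenpi, Cenpk and Cenpm belong to one subcomplex, and all 4 rose. Of the Cenpo, Cenpp and Cenpq group, Cenpp rose, while Cenpo (0.57 ± 0.21, adjusted p = 0.403) and Cenpq (0.59 ± 0.21, adjusted p = 0.369) did not pass. Likewise Cenpw rose and its DNA-binding partner Cenpt did not pass (0.61 ± 0.22, adjusted p = 0.395). Cenpp has a second probe, a dim one, with a difference of -0.31 (adjusted p = 0.718) in the test of single probes.

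Cenpn, which reads the CENP-A nucleosome, did not pass. Its signals were 3.73, 3.59, 4.27 and 3.95 in sham and 6.48, 4.38, 5.27 and 5.82 after pancreatectomy. The groups did not overlap, but pancreatectomy replicate 2, not above background, came within a small step of sham replicate 3. The difference was 1.60 ± 0.40 (limma adjusted p = 0.194), and Cenpn passed without pancreatectomy replicate 2 (1.97, adjusted p = 0.0412). Cenpl stood at 1.30 ± 0.24 (adjusted p = 0.0613), and its dimmer probe passed on its own (1.61, adjusted p = 0.0400).

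Cenpc1 and Cenpb, both DNA-binding proteins that are present through the whole cell cycle, showed almost no difference. Cenpc1 read 8.90, 9.26, 8.77 and 8.93 in sham and 8.81, 9.08, 8.89 and 9.29 after pancreatectomy. The arrays of both groups were interleaved, and the difference was 0.05 ± 0.17 with a 95% interval from -0.33 to 0.44 (limma adjusted p = 0.930). Cenpb had -0.10 ± 0.15 (interval -0.43 to 0.24, adjusted p = 0.835), and its other 2 probes gave -0.08 and -0.03. Changes as large as those of Cenpa or Cenpi lie outside both intervals.

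Single arrays decided several inner calls. For Cenpa the call was lost when sham replicate 1 or 2 or pancreatectomy replicate 4 was left out, with differences of 3.54 to 3.71 there. Cenpi failed with any one of sham replicates 1, 2 and 3 or pancreatectomy replicate 4 removed (3.35 to 3.73), and so did Cenpm (2.81 to 3.13).

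**Figure D2:**
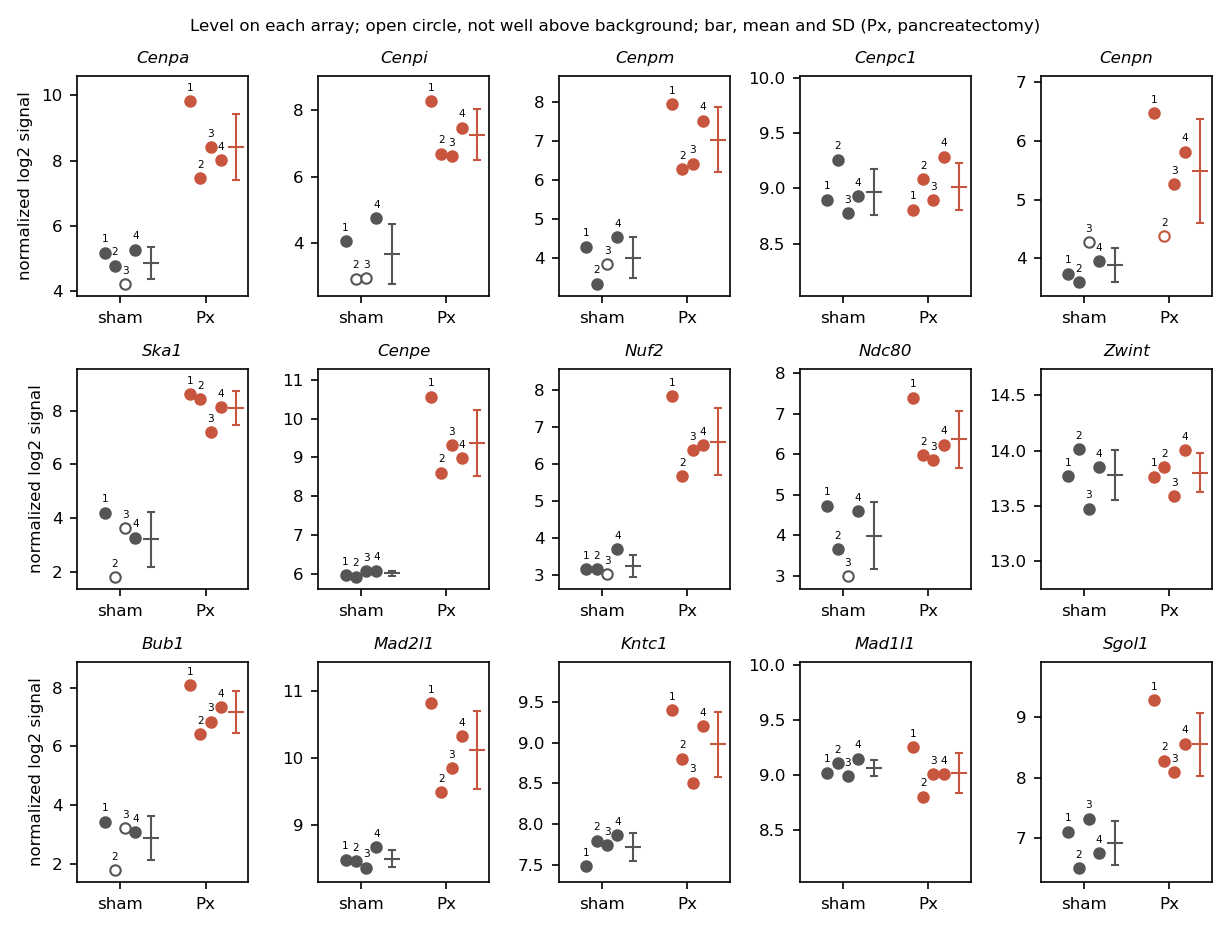
Normalized log2 signal (vertical axes, each panel with its own range) on the 4 sham and 4 pancreatectomy arrays for 15 genes, numbered by replicate. Open circles were not well above background and bars give the mean and SD, and Cenpa, Ska1, Cenpe, Nuf2, Bub1, Mad2l1 and Kntc1 show no overlap while Cenpc1, Zwint and Mad1l1 do.

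In the outer kinetochore 7 of 14 tested genes rose, 7 did not pass, and the median log2 difference was 2.10. Ska1, the microtubule-binding subunit of the Ska complex, had the largest fitted difference of the 38, but not with normexp. It read 4.21, 1.81, 3.62 and 3.27 in sham, where replicates 2 and 3 were not above background, and 8.61, 8.43, 7.21 and 8.13 after pancreatectomy. Every pancreatectomy array stood far above every sham array. The difference was 4.87 ± 0.51 (interval 3.71 to 6.02, limma adjusted p = 0.00791; probe at chr18:74356611-74356670, mm9). With normexp it was 2.19, below Cenpe and Cenpa, and still passed.

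Cenpe, the kinesin motor that carries chromosomes to the spindle equator, was measured above background on all 8 arrays. Its signals were 5.96, 5.92, 6.06 and 6.07 in sham and 10.56, 8.60, 9.31 and 8.98 after pancreatectomy. The sham arrays were almost the same as one another, and the pancreatectomy arrays spread widely above them. The difference was 3.36 ± 0.37, or 10.3-fold (limma adjusted p = 0.00837; probe at chr3:134936387-134936446).

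The 4 subunits of the Ndc80 complex, the main microtubule anchor, gave different results. Nuf2 read 3.14, 3.14, 3.01 and 3.68 in sham and 7.84, 5.66, 6.37 and 6.52 after pancreatectomy, with no overlap. It rose by 3.36 ± 0.41 (limma adjusted p = 0.0119; probe at chr1:171428989-171429048), and its other 2 probes were not above background on any array. Leaving out sham replicate 2 or pancreatectomy replicate 4 ended that call (3.32 to 3.38). Spc24 rose by 2.85 ± 0.42 (adjusted p = 0.0226).

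Ndc80 itself had 4.74, 3.66, 2.99 and 4.59 in sham and 7.40, 5.98, 5.85 and 6.24 after pancreatectomy. The groups were separate, but sham replicate 3, not above background, lay below the other sham arrays. Its difference of 2.37 ± 0.46 did not pass (interval 1.32 to 3.43, limma adjusted p = 0.0774).

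Spc25, the fourth subunit, did not pass. Its probe read 16.52, 15.60, 16.79 and 15.55 in sham and 16.55, 16.61, 15.77 and 16.62 after pancreatectomy. Both groups covered the same range, and the difference was 0.27 ± 0.33 (interval -0.49 to 1.03, limma adjusted p = 0.799). By mean signal this probe ranked 186 of the 30858 features. The log2 signal of Nuf2 minus that of Spc25 ran from -13.78 to -11.86 in sham. The probe lies at chr2:69031953-69032012 (mm9). In the RefSeq gene order of GRCm38 the neighbours of Spc25 are Nostrin and G6pc2, an islet glucose-6-phosphatase subunit. The G6pc2 feature, picked after its values were seen, had 15.85, 15.25, 15.87 and 15.19 in sham and 15.57, 16.02, 15.41 and 15.56 after pancreatectomy (0.10 ± 0.22, adjusted p = 0.896). Whether the neighbouring transcript reaches the Spc25 probe was not tested.

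The Mis12 complex links the inner layer to Ndc80, and its subunits were split. Dsn1 (1.83 ± 0.29, adjusted p = 0.0324) and Nsl1 (2.47 ± 0.34, adjusted p = 0.0182) rose, while Pmf1 (0.94 ± 0.22, adjusted p = 0.142) and Mis12 itself (0.07 ± 0.15, adjusted p = 0.892) did not pass. The log2 signal of Nsl1 minus that of Mis12 on the same array ran from -2.88 to -2.31 in sham and from -0.68 to 0.54 after pancreatectomy. That of Dsn1 minus Mis12 ran from -2.74 to -2.29 and from -1.30 to -0.03. The ranges of the groups did not meet for either pair, and they describe shifts of 1 probe against another, not amounts of transcript.

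In the Ska complex the other subunits had smaller differences than Ska1. Ska3 rose (1.67 ± 0.27, limma adjusted p = 0.0342), and Ska2, an older name of which is Fam33a, did not pass (0.75 ± 0.45, interval -0.28 to 1.77, adjusted p = 0.597). The log2 signal of Ska1 minus that of Ska2 was 4.12 larger after pancreatectomy. It ran from -3.21 to 0.68 in sham and from 2.52 to 3.62 after pancreatectomy. These ranges did not meet, whereas those of Ska3 minus Ska2 overlapped. Dim signals enter the sham side: Ska1 was not above background on sham replicates 2 and 3, nor Ska2 and Ska3 on sham replicate 3. With normexp the difference was 2.19 for Ska1 and 0.18 for Ska2.

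Casc5, the scaffold now called Knl1 on which checkpoint proteins gather, did not pass. Its sham signals of 2.71, 0.85, 3.00 and 2.69 were not above background, and pancreatectomy arrays gave 5.64, 4.53, 4.36 and 4.75. Against the lowest signal well above background on the sham arrays it was at least 2.65-fold higher (limma adjusted p = 0.0752). Zwint, its binding partner, had the smallest difference, with 13.77, 14.01, 13.47 and 13.85 in sham and 13.76, 13.85, 13.58 and 14.00 after pancreatectomy. These overlapped fully, and the difference was 0.02 ± 0.17 (interval -0.35 to 0.40, adjusted p = 0.969), with 0.10 for its other probe. Cenpf, a large coiled-coil protein of the outer layer, was above background on 1 pancreatectomy array and no sham array and was not tested.

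In the spindle checkpoint 3 of 8 tested genes rose, 5 did not pass, and the median log2 difference was 1.44. Bub1, the kinase that recruits checkpoint proteins and shugoshin, read 3.45, 1.79, 3.21 and 3.08 in sham and 8.08, 6.41, 6.85 and 7.34 after pancreatectomy. Even the lowest pancreatectomy array was several doublings above the highest sham array, although sham replicates 2 and 3 were not above background. The difference was 4.29 ± 0.44 (interval 3.29 to 5.29, limma adjusted p = 0.00726; probe at chr2:127626988-127627047). Under normexp it was 1.68 and did not pass.

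Mad2l1 is the protein that forms the inhibitory checkpoint complex with Cdc20, and its represented probe was well above background on all 8 arrays. It read 8.47, 8.45, 8.36 and 8.66 in sham and 10.81, 9.49, 9.84 and 10.32 after pancreatectomy. There was no overlap and the sham arrays lay close together. The difference was 1.63 ± 0.27 (limma adjusted p = 0.0400), and the other 2 probes of Mad2l1 gave 0.78 (adjusted p = 0.399) and 0.88 (adjusted p = 0.143) and did not pass. Neither of those 2 probes was above background on sham replicate 3.

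Kntc1, the Rod subunit that brings dynein and Mad proteins to the kinetochore, read 7.48, 7.80, 7.74 and 7.86 in sham and 9.40, 8.80, 8.51 and 9.20 after pancreatectomy, without overlap. Its difference was 1.26 ± 0.21 (limma adjusted p = 0.0427). The calls of Mad2l1 and Kntc1 were close to the threshold: Mad2l1 lost its call without any of 7 arrays (all but pancreatectomy replicate 2, 1.39 to 1.72) and Kntc1 without any of 7 (all but pancreatectomy replicate 3, 1.12 to 1.32).

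Of the partners of Kntc1, Zwilch had 5.68, 5.20, 3.05 and 5.33 in sham and 8.59, 7.16, 7.31 and 7.84 after pancreatectomy. The low value of sham replicate 3 was not above background and stood apart from the other sham arrays. The difference of 2.91 ± 0.57 did not pass (limma adjusted p = 0.0798), but did so without sham replicate 3 (adjusted p = 0.0464), as did the second probe (1.66, adjusted p = 0.0337). Zw10, the third subunit, which also acts in vesicle transport, had 0.09 ± 0.15 (adjusted p = 0.854). The log2 signal of Kntc1 minus Zw10 ran from -2.00 to -1.41 in sham and from -0.65 to -0.08 after pancreatectomy.

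Bub1b, the BubR1 subunit of the inhibitory complex, had 2.75 ± 0.51 (limma adjusted p = 0.0624) with no overlap, and passed without pancreatectomy replicate 2 (3.21, adjusted p = 0.0180). Bub3, the shared partner of Bub1 and Bub1b, had 0.07 ± 0.16 (interval -0.29 to 0.43, adjusted p = 0.894). Mad1l1, the partner that holds Mad2l1 at the kinetochore, read 9.02, 9.11, 8.99 and 9.15 in sham and 9.25, 8.80, 9.01 and 9.01 after pancreatectomy. These arrays overlapped throughout, and the difference was -0.05 ± 0.14 (interval -0.37 to 0.27, adjusted p = 0.923). Mad2l1 minus Mad1l1 ran from -0.66 to -0.48 in sham and from 0.68 to 1.56 after pancreatectomy. These pairs of subunits were chosen after their values were seen and are given as a description.

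Ttk, the Mps1 kinase that starts checkpoint signalling, was not tested. It read 0.73, 0.86, 2.89 and 0.62 in sham, none above background, and 5.51, 2.11, 3.61 and 3.14 after pancreatectomy, where replicates 1 and 3 were above it. No fold is given for it.

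Of the shugoshins, Sgol1 had 7.11, 6.51, 7.32 and 6.75 in sham and 9.29, 8.28, 8.09 and 8.56 after pancreatectomy. The groups did not overlap, and the difference of 1.63 ± 0.29 missed the threshold narrowly (limma adjusted p = 0.0523). Sgol2 was not tested, with 1.95, 0.87, 2.94 and 1.56 in sham, none above background, and 5.62, 2.94, 4.93 and 4.81 after pancreatectomy, where only replicate 2 was not. Its pancreatectomy mean, with that dim replicate included, was 2.24-fold above the mean of the sham arrays' lowest signals well above background. With no filter on dim probes the log2 difference of Sgol2 was 2.75 and did not pass (limma adjusted p = 0.280). Cenpj, the centriole protein that serves here as a gene outside the kinetochore, read 9.11, 9.40, 10.12 and 9.45 in sham and 9.62, 9.65, 9.27 and 9.76 after pancreatectomy. The 2 groups overlapped, and the difference was 0.06 ± 0.23 (interval -0.46 to 0.58, adjusted p = 0.945).

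The size of the difference varied between pancreatectomy arrays, and replicate 1 was the highest for most of the machinery. The median deviation of the 38 genes from their own sham mean was 2.51 on pancreatectomy replicate 1, 1.33 on replicate 2, 1.37 on replicate 3 and 1.77 on replicate 4, and lay between -0.07 and 0.09 on the sham arrays. Replicate 1 was the highest of the 4 in 29 of the 38 genes and replicate 4 in 9. For the 17 called genes replicate 1 exceeded replicate 2 in all 17, by a median of 1.41. Of the 38 tested genes 31, 27, 27 and 31 were above every sham array on pancreatectomy replicates 1 to 4.

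**Figure D3:**
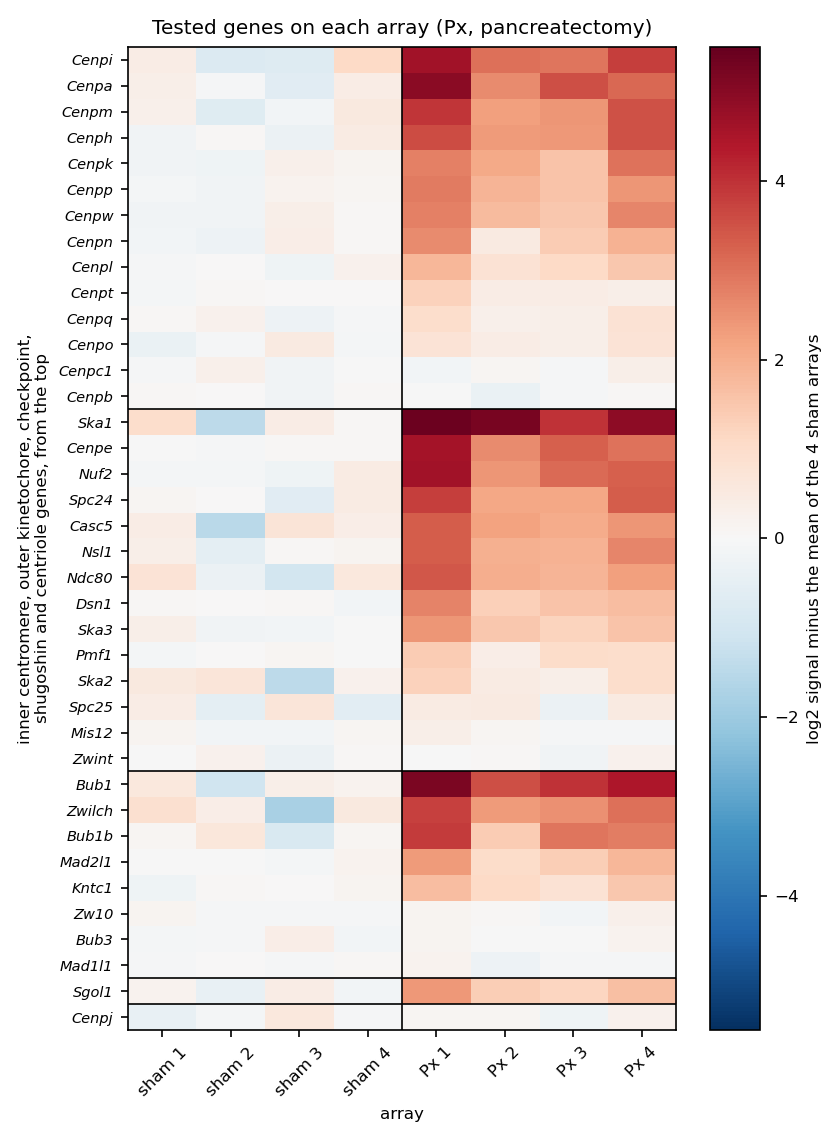
Log2 signal minus the mean of the 4 sham arrays (colour, red above and blue below) for the 38 tested genes (rows, grouped by role) on each array (columns). The 4 pancreatectomy columns are red for most genes and palest on replicates 2 and 3, and rows such as Cenpc1, Zwint, Mis12, Bub3 and Mad1l1 stay near white on all arrays.

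Markers of other cell types also differed between these arrays. The mean log2 signal of 9 fibroblast and stellate genes was 12.44, 9.51, 11.75 and 9.57 on pancreatectomy replicates 1 to 4, and 9.11 to 9.88 in sham. That of 10 macrophage genes was 10.11, 8.22, 9.79 and 8.49, and 8.40 to 8.93 in sham, with Cd163 not above background on any array. Replicates 1 and 3 were thus high in both lists, while replicates 2 and 4 were near the sham range. The mean of 8 neutrophil genes was 6.60, 5.55, 6.59 and 5.84, against 5.31 to 5.69 in sham. That of 8 lymphocyte genes was 8.82 on replicate 3, against 6.17 to 6.59 in sham. The 10 acinar genes were bright on every array, with means of 12.13 to 15.37 in sham and 13.47 to 15.46 after pancreatectomy. Replicate 2, at 14.22 for the acinar genes, stood out in neither the fibroblast and macrophage lists nor liver, gut or B-cell transcripts. Its mean of 8 erythroid genes, 6.47, was the highest of any array, against 5.61 to 6.03 in sham. On replicate 2 the median deviation of the 38 genes from their sham mean was 1.33. With only that array set against sham replicates 1 to 3, the median difference of the 38 genes was 1.27, and none passed limma's adjusted test, in which the lone array is assumed to vary like the sham arrays. At an unadjusted p under 0.05, 20 of the 38 were higher, beside 1634 of 30798 features that differed in either direction. No marker gene of any list was called, and which cells carried the kinetochore transcripts was not tested.

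**Figure D4:**
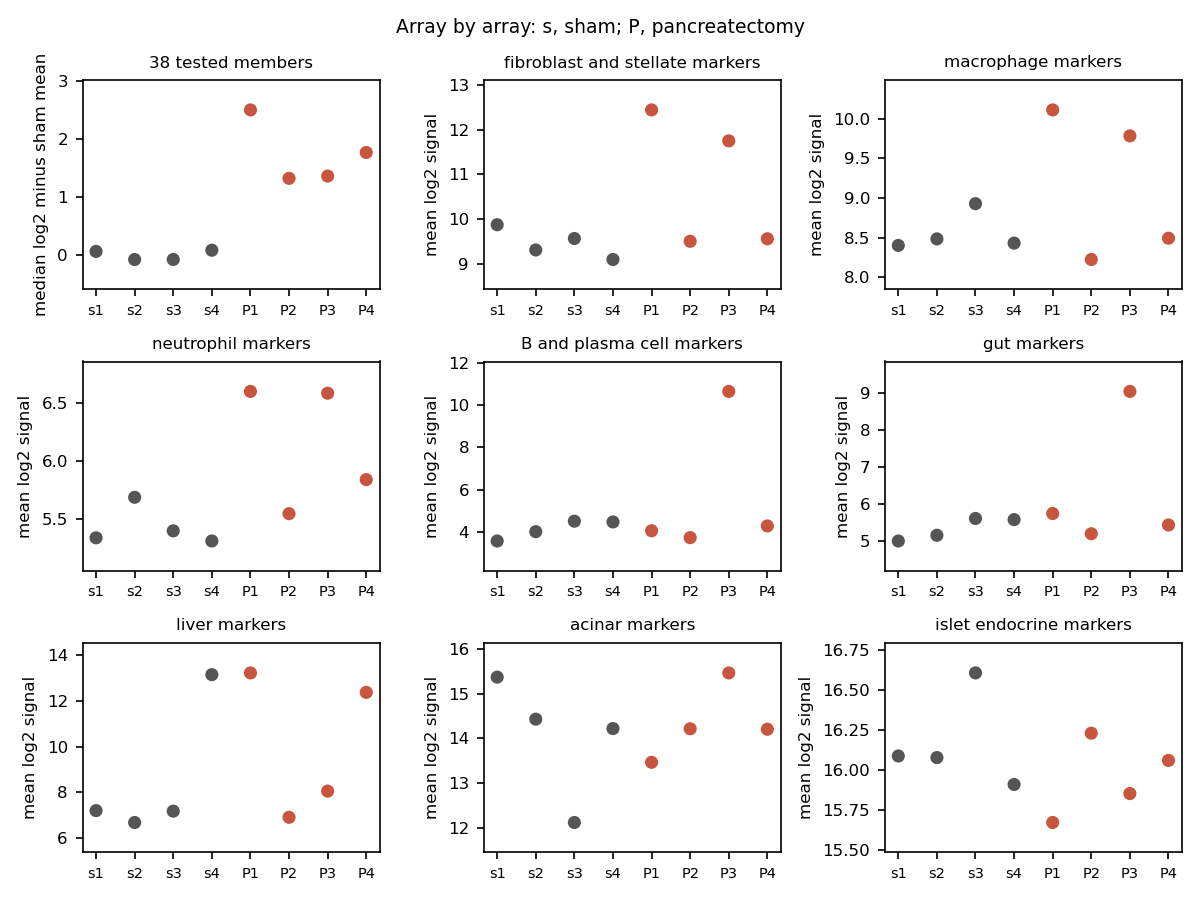
Median log2 deviation of the 38 tested genes from their sham mean (first panel) and mean log2 signal of 8 marker lists (other panels) on sham (s1 to s4, grey) and pancreatectomy (P1 to P4, red) arrays. The kinetochore genes are high on all 4 pancreatectomy arrays, the fibroblast and macrophage lists on P1 and P3, liver markers on P1, P4 and s4, and gut and B-cell markers on P3.

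A list of 30 other genes of the same machinery, not among the 41, was also chosen with earlier results of these data known. Of these, 27 were tested, 7 rose, 0 fell and 20 did not pass, with a median log2 difference of 0.62. The 3 largest differences that passed were those of Birc5, the survivin subunit of the chromosomal passenger complex (3.98 ± 0.39, limma adjusted p = 0.00726), Plk1, the mitotic kinase (3.72 ± 0.43, adjusted p = 0.00929), and Cdc20, the activator that the checkpoint inhibits (3.66 ± 0.38, adjusted p = 0.00726). Others that rose include Cdca8, a passenger complex subunit, and Trip13, which recycles Mad2. Hjurp, the CENP-A chaperone, did not pass (0.62 ± 0.22, adjusted p = 0.394).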

How the data were processed

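The 41 genes and the lists were chosen with earlier results of these data known. Per the file headers, the authors' scanner files hold spot intensity from Agilent Feature Extraction 10.7.3.1 (the submitters' processing notes name 9.1), with flags and probe positions on mm9. The deposited table from GeneSpring GX 12.5 holds intensity and log2 group averages, scaled by the authors to the 75th percentile per the file headers. From the processed signal (background-subtracted per the file headers), control and outlier spots were removed, log2 values were shifted to the mean 75th percentile, and replicate spots were averaged. Probes stayed in if well above background on at least 4 of 8 arrays with at least 3 values per group (37485 of 55681 probes), and the brightest kept probe stood for a gene, so probes of 1 gene that disagree are named. limma 3.58.1 (R 4.3.3) compared 4 pancreatectomy with 4 sham arrays over 30858 features, with Benjamini-Hochberg adjusted p-values and a threshold of 0.05. The script was tested on simulated data. The folds given for Casc5 and Sgol2 set the pancreatectomy mean against a raised sham mean. In it, values below each array's lowest signal well above background were raised to that signal. The number of arrays limits precision, and the probes' positions within exons are not analysed here. Named genes are, per role, the 3 called with the largest difference, any called lower, the largest and smallest difference that missed the threshold, Cenpa, Ndc80, Mad2l1, both shugoshins and Cenpj, members whose probes disagree, and the 3 largest of the other kinetochore genes. Spc25, G6pc2, Hjurp and the other genes named beside these were picked after their values were seen. Normexp used median spot and background signals with an offset of 50, since the array files used here give median spot signals. Other scaling, filters, probe choice, slide row, weights and left-out arrays were the alternatives.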

Additional observations from a re-analysis of the deposited data

Results flagged for a closer look

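In 7 of 76 groups of 4 arrays (38 genes in each of 2 conditions), 1 array stood apart from the other 3 by more of the group's range than Dixon's 95% value allows. Chance alone flags about 1 in 20 such groups. The gap, as a share of the group's range, was 0.841 for Cenpb in sham, where replicate 3 was lowest at 11.89. It was 0.901 for Cenpt after pancreatectomy, where replicate 1 was highest at 7.83 and the next array was at 6.98. For Spc25 after pancreatectomy it was 0.922, with replicate 3 lowest at 15.77. Dsn1 in sham gave 0.852, with replicate 4 lowest at 5.02. Casc5 in sham gave 0.856, with replicate 2 lowest at 0.85 and no sham array above background. Bub3 in sham gave 0.835, with replicate 3 highest at 11.75, and Zw10 in sham gave 0.892, with replicate 1 highest at 9.48. Of these 7 genes only Dsn1 was called, and it lost the call without any 1 of 6 arrays, all 4 sham arrays and pancreatectomy replicates 3 and 4 (1.78 to 1.92).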

How the results depend on the processing

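No member was called lower in any alternative, and no call changed sign. The count of members called higher, 17, was 2 with unscaled arrays, 3 with normexp, 6 with no filter on dim probes and 10 where a probe had to be above background on all 8 arrays, which left 23 members to test. It was 13 with median scaling and 13 with quantile normalization, where Cenpi was among those lost and Casc5 was gained. It was 14 with the slide row as a block (Dsn1, Mad2l1 and Kntc1 lost). The mean of a gene's probes gave 17, with Cenpp and Mad2l1 lost and Cenpl and Zwilch gained. Every probe tested on its own gave 19, an intensity trend 20 and array weights 25. Of all features, 165 were called higher in the main fit, 18 unscaled, 52 with normexp and 68 unfiltered. The filter on all 8 arrays gave 93. The other feature counts, in the order above, were 129, 123, 111, 170, 195, 186 and 392. Array weights also called 371 features lower, against 27 in the main fit. Within slide row 1 (2 arrays against 2) limma called 0, with 24 members higher at an unadjusted p under 0.05 (2051 of 30798 features in either direction), and within slide row 2 it called 0, with 25 (901 of 30827); the other kinetochore genes called were also 0 and 0. Without the 4 arrays that carried liver, gut or B-cell transcripts, where the lone pancreatectomy array is assumed to vary like the sham arrays, it called 0 members (20 at an unadjusted p under 0.05, 1634 of 30798 features) and 0 other kinetochore genes. Leaving out 1 array gave 4 to 19 members, fewest without sham replicate 2 or pancreatectomy replicate 4, and 5 to 9 other kinetochore genes. Over all features, 52 to 163 were then called higher. The 7 other kinetochore genes became 2 unscaled, 4 with normexp and 12 with array weights. The members' median of 1.65 was 0.87 with normexp, 0.61 in the strict filter, 1.27 without the 4 arrays, 1.93 and 1.52 within slide rows 1 and 2, 1.41 to 1.90 with 1 array left out and 1.66 in the authors' deposited table. The cause of these shifts was not tested, beyond fewer arrays or probes. No paired analysis was possible because the labels give no number that joins a sham array to a pancreatectomy array. Dim sham signals limit the size of the largest differences.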
